A study of Mus musculus with 4 samples.

Results

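The genes whose symbols begin with Ptpn, Ptpr or Dusp were examined for streptavidin ChIP peaks in mouse thymocytes. These are mainly the genes of the non-receptor tyrosine phosphatases (Ptpn), the receptor-type tyrosine phosphatases (Ptpr) and the dual-specificity phosphatases (Dusp), which include the MAP kinase phosphatases. All protein-coding genes with such a symbol in the RefSeq annotation of mm10 were taken, which gave 62 members among 21883 protein-coding nuclear genes: 17 Ptpn, 21 Ptpr and 24 Dusp genes. A peak was counted at a gene when its midpoint lay within the gene body or 30 kb on either side, and no peak was counted at more than 1 member. The study asked where PLZF, the zinc finger factor encoded by Zbtb16, binds in thymocytes. The NKT library came from thymocytes of PLZF tg/BirA tg/Valpha14 tg mice, and the Tg thy library from thymocytes of PLZF tg/BirA tg mice, both on a C57BL/6 background. All mice thus carried the PLZF transgene and that for BirA, the bacterial enzyme that attaches biotin, and only the NKT mice carried Valpha14, the T cell receptor alpha chain typical of invariant natural killer T cells. The labels name neither the promoters that drive the transgenes nor any sorting of the cells, and peak lists hold no expression with which the cell type could be checked.

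Tyrosine phosphatases remove phosphate from the kinases and receptor chains that relay the T cell receptor signal, some of them to start signalling and others to end it. CD45, the product of Ptprc, removes the inhibitory phosphate of the kinase Lck, whereas PEP (Ptpn22) and SHP-1 (Ptpn6) act on activated kinases and dampen the response. The typical Dusp enzymes remove phosphate from both the threonine and the tyrosine of active MAP kinases such as ERK, JNK and p38. Several of them are induced by the signal that they then limit. The symbol rule also took in Ptprcap, whose product associates with CD45 and is not itself a phosphatase. It left out Ptprv and Ptprtos, which the annotation does not list as protein-coding.

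There was 1 library in each group and every mouse carried the PLZF transgene, so the differences between the lists have no replicate check, no test between them was made, and a listed peak need not be a PLZF site. The NKT list held 4242 peaks outside mitochondrial DNA with a median width of 224 bp and a median score of 73.8. The Tg thy list held 5192 with a median width of 387 bp and a median score of 110.7. The score is the authors' value for each peak. It is used here to describe and rank peaks within a list, and scores of both lists set side by side show no change. The rank of a peak is given below as the percentage of its own list with a lower score. Read depth is unknown, and the intervals below cover counting error only.

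Promoter sequence is shown for the 6 members at which a peak covered part of an annotated promoter window (250 bases before to 50 after a RefSeq start site, build GRCm38.p6, the assembly behind mm10). They are printed because they put the peak on the sequence where transcription starts. A single window is shown for a gene with several start sites. Capitals mark the bases within an NKT peak for Ptpn22, Ptprc, Dusp10 and Dusp6, and those within a Tg thy peak for Ptpn7 and Dusp12. All are written along the direction of transcription.
Ptpn22, chr3:103860027-103860326, plus strand: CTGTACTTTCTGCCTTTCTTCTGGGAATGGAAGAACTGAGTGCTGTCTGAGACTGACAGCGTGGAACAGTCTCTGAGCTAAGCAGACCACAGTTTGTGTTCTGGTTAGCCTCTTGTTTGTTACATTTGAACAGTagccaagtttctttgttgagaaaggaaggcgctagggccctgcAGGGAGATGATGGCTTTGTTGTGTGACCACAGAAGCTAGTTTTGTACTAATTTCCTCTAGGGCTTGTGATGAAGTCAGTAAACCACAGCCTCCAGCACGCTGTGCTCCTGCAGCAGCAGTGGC
Ptprc, chr1:138175077-138175376, minus strand: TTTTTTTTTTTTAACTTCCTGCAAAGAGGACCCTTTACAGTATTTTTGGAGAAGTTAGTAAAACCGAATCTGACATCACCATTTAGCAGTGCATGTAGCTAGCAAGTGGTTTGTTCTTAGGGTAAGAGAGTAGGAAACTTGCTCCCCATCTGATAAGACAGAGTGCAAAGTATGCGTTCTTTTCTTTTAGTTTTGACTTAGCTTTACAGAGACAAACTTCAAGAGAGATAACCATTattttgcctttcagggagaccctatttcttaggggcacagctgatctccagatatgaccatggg
Dusp10, chr1:184034131-184034430, plus strand: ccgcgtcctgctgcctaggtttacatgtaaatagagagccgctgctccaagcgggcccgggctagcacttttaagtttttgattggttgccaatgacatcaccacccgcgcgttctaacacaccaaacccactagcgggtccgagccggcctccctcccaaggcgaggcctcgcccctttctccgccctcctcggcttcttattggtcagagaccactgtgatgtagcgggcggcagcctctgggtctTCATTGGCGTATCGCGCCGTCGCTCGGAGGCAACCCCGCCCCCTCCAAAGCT
Ptpn7, chr1:135133059-135133358, plus strand: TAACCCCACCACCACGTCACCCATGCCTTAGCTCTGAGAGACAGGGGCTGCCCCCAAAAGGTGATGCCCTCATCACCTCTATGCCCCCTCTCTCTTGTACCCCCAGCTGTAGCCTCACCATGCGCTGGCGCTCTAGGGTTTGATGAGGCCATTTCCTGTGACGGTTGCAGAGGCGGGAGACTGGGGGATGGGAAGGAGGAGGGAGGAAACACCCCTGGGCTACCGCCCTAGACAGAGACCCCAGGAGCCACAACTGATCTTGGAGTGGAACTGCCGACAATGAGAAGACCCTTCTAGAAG
Dusp12, chr1:170885491-170885790, minus strand: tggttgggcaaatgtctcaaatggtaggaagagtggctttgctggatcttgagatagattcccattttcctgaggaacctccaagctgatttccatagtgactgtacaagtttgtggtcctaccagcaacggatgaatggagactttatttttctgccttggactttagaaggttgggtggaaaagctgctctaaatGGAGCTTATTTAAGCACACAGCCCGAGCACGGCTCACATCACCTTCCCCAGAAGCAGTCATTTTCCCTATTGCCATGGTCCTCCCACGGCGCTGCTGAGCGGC
Dusp6, chr10:99262981-99263280, plus strand: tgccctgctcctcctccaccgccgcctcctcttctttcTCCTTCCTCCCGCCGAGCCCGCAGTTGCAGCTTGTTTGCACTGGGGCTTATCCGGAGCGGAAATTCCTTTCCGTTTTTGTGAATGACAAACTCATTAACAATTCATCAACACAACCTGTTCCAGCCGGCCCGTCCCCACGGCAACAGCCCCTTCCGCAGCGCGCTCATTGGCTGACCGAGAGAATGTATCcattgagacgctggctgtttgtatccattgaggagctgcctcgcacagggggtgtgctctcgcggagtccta

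NKT peaks covered 257 of the 300 bases in Ptpn22, 236 in Ptprc, 52 in Dusp10 and 190 in Dusp6, and none in Ptpn7 and Dusp12. Tg thy peaks covered all 300 bases in Ptpn22, Ptprc and Ptpn7, 106 in Dusp10 and 103 in Dusp12, and none in Dusp6. Promoters were in the sequence table for 50 of the 62 members, with 67 windows in all. Of these, 6 lay under an NKT peak and 7 under a Tg thy peak, against 1.7% and 2.33% of all 32851 promoter windows in the table. Ptpn22 and Ptprc count more than once in each list, and the Ptprc windows overlap under the same peak of each list. These are thus counts of windows and not of separate genes. The windows were searched on both strands for GGAAGT (the core of ETS factors), TGTGGT (the core of RUNX factors) and GGGCGG (the GC box), and no match overlapped another. The Ptpn22 window held 3 RUNX cores, all on the opposite strand and within both libraries' peaks, beginning at positions -165, -48 and 9 from the start site. At least 1 RUNX core was in 7 of the 67 member windows, against 16.8% of all promoter windows, and 3 or more were in 0.183% of all windows. The other Ptpn22 window, also under peaks of both lists and not printed, held no RUNX core and 2 ETS cores. The printed Ptprc window held 1 ETS core, within the peaks of both lists. The other Ptprc window, not printed, overlaps it and was also under peaks of both lists. It held 2 ETS cores, 1 of them the same core and the other only partly within the NKT peak. At least 1 ETS core was in 14 of the 67 member windows, against 23.8% of all windows. The Dusp10 window held 3 GC boxes, beginning at positions -68, -22 and 34 from the start site. The box at 34 lay within the peaks of both lists, that at -22 within the Tg thy peak alone and that at -68 within neither. The Ptpn7 window held 1, within the Tg thy peak. At least 1 GC box was in 38 of the 67 member windows, against 35.7% of all windows, and 3 or more were in 10.7% of all windows. The Dusp12 window held 1 RUNX core outside the peak, and the Dusp6 window none of these letters.

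At least 1 NKT peak lay at 20 of the 62 genes (32.3%) and at least 1 Tg thy peak at 23 (37.1%), against 20.3% and 23.8% of all protein-coding genes. Peaks of both lists lay at 15 members (24.2%), against 15.2% of all genes. At 11 members (17.7%) an NKT and a Tg thy peak overlapped by at least 1 bp, against 13.2% of all genes. The NKT list alone had peaks at 5 members, the Tg thy list alone at 8, and 34 members had none in either. Per length of sequence the members were close to the background. They held 3.09 NKT peaks and 3.47 Tg thy peaks per Mb of window, and all protein-coding genes 3.01 and 3.71, where a peak counts again for each gene whose window holds it. Members were also longer, with a median of 53.5 kb against 17.2 kb for all genes.

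Each of the 3 families held genes with and without peaks. An NKT peak lay at 7 of 17 Ptpn, 7 of 21 Ptpr and 6 of 24 Dusp genes, and a Tg thy peak at 7, 8 and 8 of them. The families differ in length, with medians of 59.1 kb for Ptpn, 151.0 kb for Ptpr and 11.8 kb for Dusp, and peaks per Mb of window were 6.16, 1.75 and 5.97 in the NKT list and 4.40, 2.19 and 8.68 in the Tg thy list. A list of 21 members that are enriched in leukocytes or act in T cell signalling had NKT peaks at 12 (57.1%) and Tg thy peaks at 15 (71.4%), and the other 41 members at 8 in each list (19.5%). That count is close to the share of all genes, but per Mb of window the other members were below it. They held 1.08 NKT and 1.08 Tg thy peaks per Mb, the leukocyte list 9.82 and 11.5, and all protein-coding genes the 3.01 and 3.71 given above. The median length was 55.7 kb in the leukocyte list and 51.6 kb in the other members, but total window length was 3.06 Mb and 10.2 Mb. Of the 10.2 Mb, 7.73 Mb belonged to Ptpr genes, which held 0.388 peaks per Mb in each list. The low value of the other members thus rests largely on long receptor-type genes. Ptpn genes outside the leukocyte list held 5.07 NKT and 4.22 Tg thy peaks per Mb, above all genes. Dusp genes outside it held 1.56 and 2.35. No test was made of these counts, since the genes are not replicates and the lists were chosen with results of these data known.

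**Figure D1:**
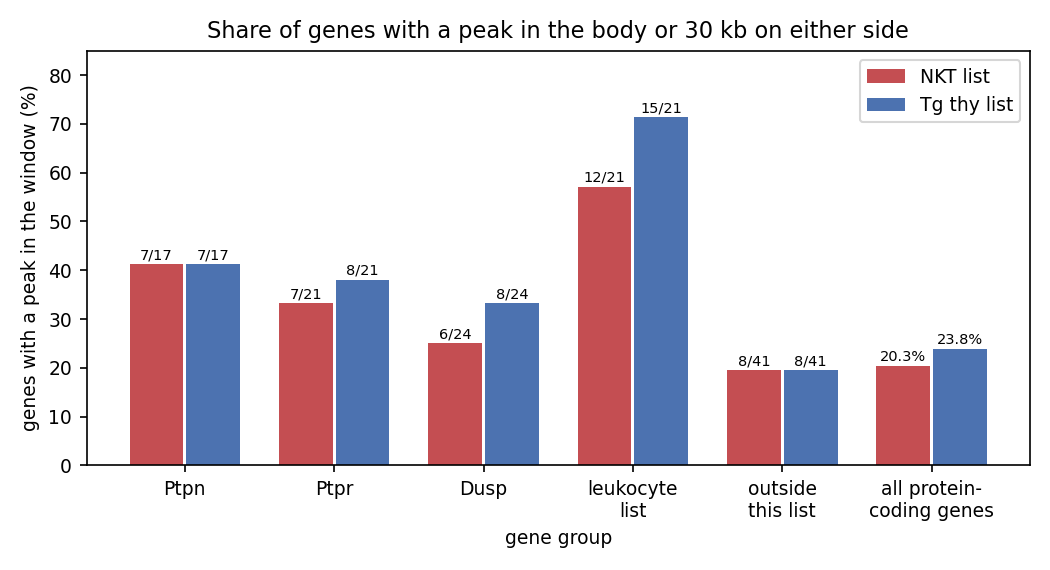
Percentage of genes with at least 1 peak midpoint in the gene body or 30 kb on either side (vertical axis). Groups are the 3 families, the leukocyte list, the members outside it and all protein-coding genes. In each pair the NKT list is left and the Tg thy list right. Above each bar stands the number of genes, or the percentage for all protein-coding genes. The leukocyte list stands at 57.1% and 71.4%, and the members outside it at 19.5% in both lists, near the 20.3% and 23.8% of all genes.

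The leukocyte list stood above the other members in each family for the Tg thy list and in the Ptpr and Dusp families for the NKT list. Among Ptpr genes, 5 of 6 leukocyte members and 2 of 15 others had an NKT peak, and 5 of 6 and 3 of 15 a Tg thy peak. Among Dusp genes, 4 of 7 leukocyte members and 2 of 17 others had an NKT peak, and 6 of 7 and 2 of 17 a Tg thy peak. Among Ptpn genes the NKT counts were 3 of 8 leukocyte members and 4 of 9 others, and the Tg thy counts 4 of 8 and 3 of 9. Of the 10 typical MAP kinase phosphatases, 4 had an NKT peak and 6 a Tg thy peak, and of the 14 other Dusp genes, 2 in each list, where all genes gave 20.3% and 23.8% and genes under 20 kb gave 17.5% and 20.8%.

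Gene length was taken into account by classes. Among members under 20 kb, 8 of 24 had an NKT peak and 9 of 24 a Tg thy peak, against 17.5% and 20.8% of all genes of that length. Among members of 20 to 100 kb, 6 and 9 of 19 had one, against 22.4% and 26.7%. Among members over 100 kb, 6 and 5 of 19 had one, against 27.4% and 29.0%, so the longest members were near the background. The leukocyte members had an NKT peak at 4 of 7 genes in each of these classes, and a Tg thy peak at 7 of 7 under 20 kb, 4 of 7 of 20 to 100 kb and 4 of 7 over 100 kb. The longest genes of the families are receptor-type genes. Ptprd spans 2271 kb, Ptprt 1139 kb, Ptprn2 792 kb and Ptprg 689 kb, and none of them had a peak in either list. Ptprm, of nearly the same length as Ptprg at 688 kb, had an NKT peak, and Ptprk, at 523 kb, had 5 in each list. Of 10 members chosen for roles in neurons and endocrine cells, 1 had an NKT peak and 2 a Tg thy peak. These were Ptprn in both lists and Ptprs in Tg thy. The Tg thy count was near the 23.8% of all genes, but these 10 members were long, with a median of 235 kb. They held 0.319 peaks per Mb of window in each list, against 3.01 (NKT) and 3.71 (Tg thy) for all protein-coding genes.

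**Figure D2:**
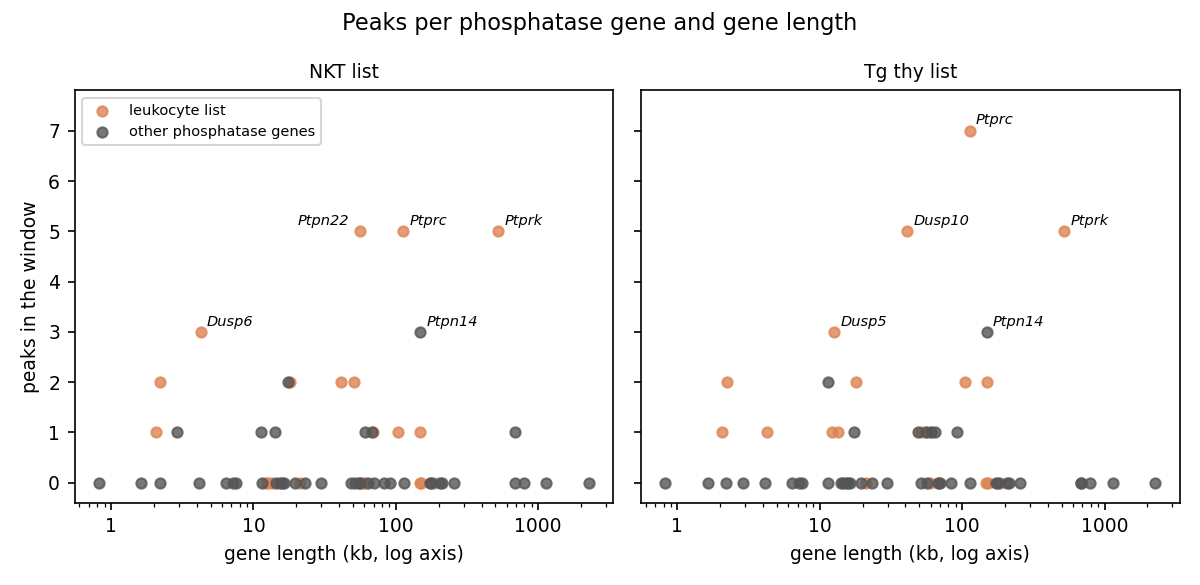
Number of peaks in the gene window (vertical axis) against gene length in kb (log axis) for the 62 members, in the NKT list (left) and the Tg thy list (right), with genes of the leukocyte list in orange and the other members in grey and genes with 3 or more peaks named. Ptprc and Ptprk had 5 NKT peaks each and 7 and 5 Tg thy peaks, while Ptprd, Ptprt, Ptprn2 and Ptprg had none.

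Among the receptor-type genes, Ptprc had the highest score of all members in both lists. The gene spans chr1:138062859-138175756 and is read from the higher coordinate. The strongest peak lay 20.8 kb inside the gene from its first listed start site, with a score of 469 in the NKT list (chr1:138154176-138154849, above 97.9% of that list) and 844 in the Tg thy list (chr1:138154056-138154977, above 98.5%). A second site, 38.7 kb inside in NKT and 38.8 kb in Tg thy, had scores of 251 and 614, and another, 16.1 kb before the gene in NKT and 16.2 kb in Tg thy, had 273 and 764. All of these sites thus stood in the top 10% of both lists, and the nearest other protein-coding gene, Atp6v1g3, lay 81.8 kb from the upstream one. The peaks at the start site scored lower, with 74.4 in NKT (above 50.4% of the list) and 236 in Tg thy (above 80.1%). A further NKT peak of 57.9 lay 505 bp inside the gene, and Tg thy peaks of 106, 106 and 52.9 lay 18.1 and 12.4 kb inside and 3.65 kb before the gene, without an overlapping peak in the other list. Ptprc therefore had 5 NKT and 7 Tg thy peaks. In all, 3 members had 5 or more NKT peaks and 3 had 5 or more Tg thy peaks, against 0.507% and 0.841% of all genes, a threshold chosen with the values known. The NKT count includes Ptpn22, of whose 5 peaks 3 lay under a single Tg thy peak. Window length was not allowed for, and that of Ptprk is 583 kb against a median of 77.2 kb for all genes.

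**Figure D3:**
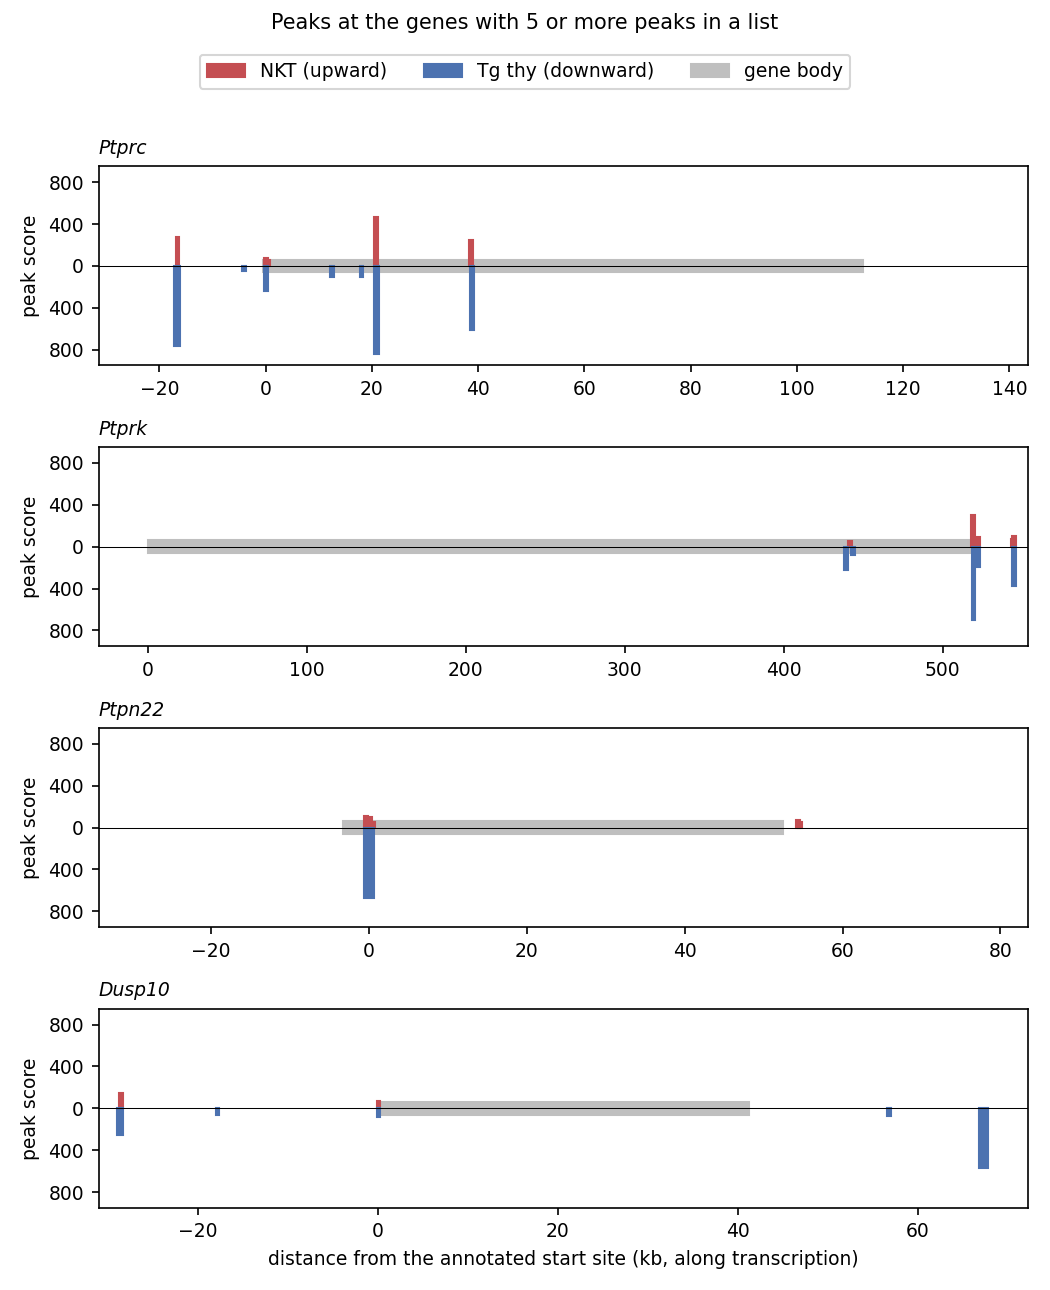
Peaks at Ptprc, Ptprk, Ptpn22 and Dusp10, the members with 5 or more peaks in at least 1 list, by distance from the first listed start site in kb along transcription (horizontal axis), with NKT peaks drawn upward, Tg thy peaks downward, bar height the authors' score, narrow peaks widened to stay visible and the gene body in grey. The 3 strong Ptprc sites and the Ptprk site 519 kb from the start appear in both lists, and the Dusp10 peak at 67.3 kb in the Tg thy list alone.

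Ptprk encodes a receptor-type tyrosine phosphatase. Its peaks were at the far end of the 523 kb gene. The strongest, 519 kb from the start and inside the gene, scored 299 in the NKT list (above 94.4%) and 699.6 in the Tg thy list (above 97.7%). A site 522 kb from the start scored 92.5 and 197, and a site 22.3 kb beyond the end in NKT and 22.4 kb in Tg thy scored 105 and 372, the NKT score first. The remaining NKT peaks scored 50.6 inside the gene and 70.9 beyond its end, and the remaining Tg thy peaks 225 and 82.8, both inside. Themis, a gene of thymocyte selection, is the next protein-coding gene, 48.6 kb from the outermost of these peaks in both lists.

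The other receptor-type members of the leukocyte list had fewer peaks. Ptpra, which activates Src family kinases, had 1 shared site 82.2 kb inside the gene with scores of 116 in NKT and 224 in Tg thy, and a second Tg thy peak of 110.0. Ptpre, its close relative in blood cells, had an NKT peak of 132 and Tg thy peaks of 58.3 and 60.9, and none of them overlapped. It was the only member with a higher top score in the NKT list apart from Ptpn21, whose values were 72.2 in NKT and 71.6 in Tg thy. Ptprj, which encodes CD148, had no peak in either list. At Ptprcap the scores were 261 in NKT (above 92.5%) and 379.6 in Tg thy (above 91.4%), but the site lay 28.6 kb from the gene and inside Tbc1d10c.

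Receptor-type genes outside the leukocyte list had few peaks. Ptprn, which encodes a neuroendocrine granule protein, had NKT peaks of 74.5 inside the gene and 63.2 at 23.9 kb, and a Tg thy peak of 251 over the more distant site, which lay inside A630095N17Rik. Ptprh had a Tg thy peak of 155 at 29.9 kb, just within the window and inside Tnni3, and none in NKT. Ptprs had a single Tg thy peak of 55.9 and Ptprm a single NKT peak of 51.2, both inside the gene and in the lowest 10% of their lists. Along with Ptprj, no peak was listed at Ptprb, Ptprd, Ptprf, Ptprg, Ptprn2, Ptpro, Ptprq, Ptprr, Ptprt, Ptpru and Ptprz1.

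Among the non-receptor genes, Ptpn22 had its promoter peak divided differently in each list. Around its start sites, whose sequence is printed above, the Tg thy list had a single peak of 1360 bp with a score of 674 (chr3:103859136-103860495, above 97.3%). The NKT list divided this stretch into 3 peaks with scores of 109.5, 100.2 and 55.3, the highest above 69.7% of its list. NKT peaks of 75.3 and 53.9 also lay 1.92 and 2.12 kb beyond the end of Ptpn22, inside Rsbn1. Ptpn6 had NKT peaks of 104 and 52.5 under a single Tg thy peak of 369.6, at 2.58, 2.31 and 2.45 kb before the gene, and a second Tg thy peak of 78.1 beside it. These peaks lay at or within 0.224 kb of Grcc10, the next gene.

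Ptpn14, best known for holding the co-activator YAP in the cytoplasm, had the highest scores outside the leukocyte list. A shared site 103 kb inside the gene scored 412 in NKT (chr1:189830804-189831519, above 97.2%) and 783 in Tg thy (chr1:189830614-189831509, above 98.2%). The next gene, Smyd2, was 49.3 kb away from the NKT peak. The other NKT peaks of Ptpn14 scored 70.2 and 52.4 and the other Tg thy peaks 52.8 and 52.7, without overlap. Ptpn7, a phosphatase of ERK and p38 in blood cells, had a Tg thy peak of 177 (above 69.9%) over its second start site and no NKT peak, the nearest NKT peak being 595028 bp away. Ptpn11, which encodes SHP-2, had a Tg thy peak of 86.2 at 23.4 kb and none in NKT. Ptpn12, which encodes PTP-PEST, had an NKT peak of 52.3 inside the gene and none in Tg thy, whose nearest peak of 52.6 lay 30.8 kb from the gene, just outside the window. Ptpn2, an inhibitor of JAK and STAT signalling, had no peak in either list, nor had Ptpn3 and Ptpn4, which encode phosphatases with FERM and PDZ domains.

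Of the other non-receptor genes, Ptpn1, which encodes PTP1B, had a Tg thy peak of 153 inside the gene, with none in NKT. Ptpn21 had a peak in each list, 2455 bp apart. Ptpn18 had an NKT peak of 73.4 inside the neighbouring gene Imp4, and Ptpn9 one of 52.0 inside Sin3a, with none in Tg thy. Ptpn5, Ptpn13, Ptpn20 and Ptpn23 had none.

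**Figure D4:**
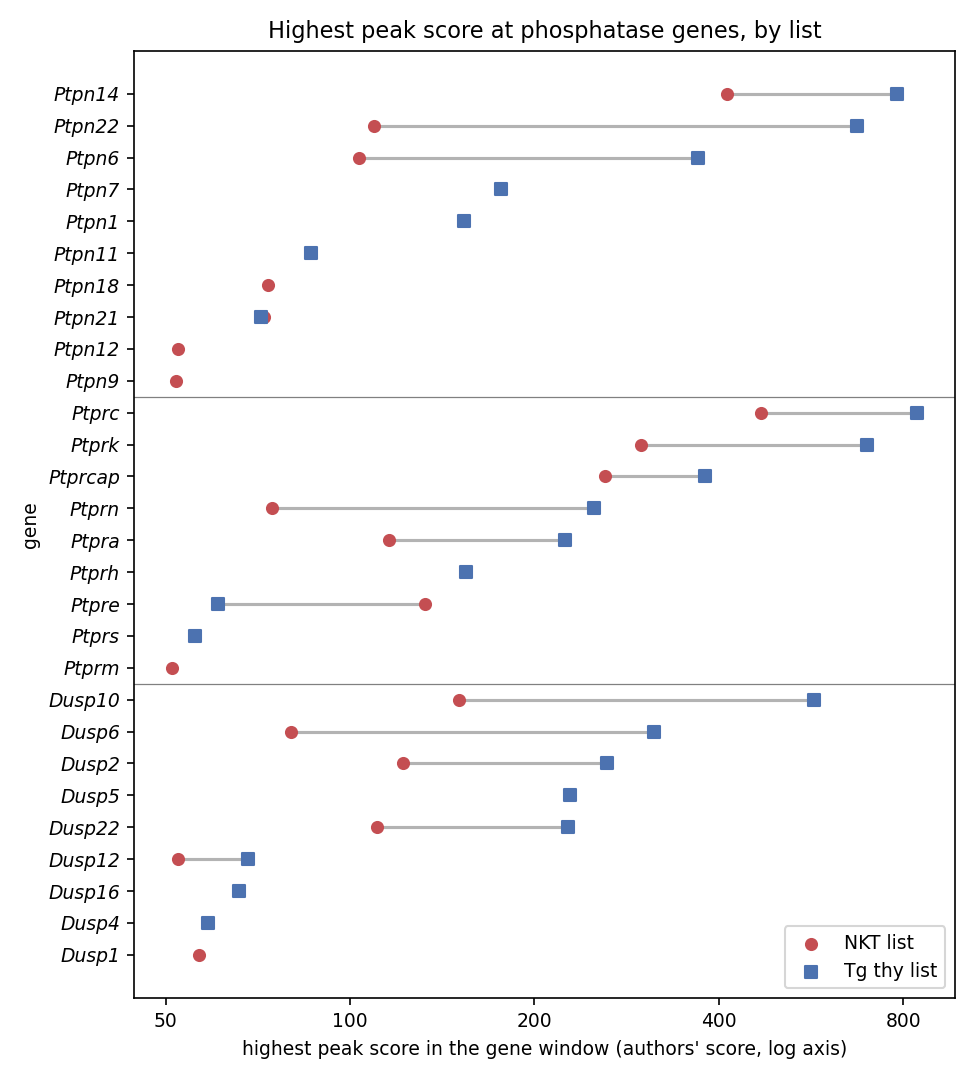
Highest peak score in the gene window (log axis, the authors' score) for the 28 members with a peak, grouped by family, with NKT values as red circles, Tg thy values as blue squares and a line joining both where a gene had both. The Tg thy score was the higher at 13 of the 15 genes with peaks in both lists, Ptpre and Ptpn21 being the others, and scores of different lists do not measure a change.

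Among the Dusp genes, Dusp10 had the most Tg thy peaks, with 5, and 2 NKT peaks, while Dusp6 had the most NKT peaks, with 3. Dusp10 encodes MKP5, a phosphatase of JNK and p38 that restrains T cell cytokine production. A site 28.6 kb before the start scored 151 in NKT (above 81.6%) and 254 in Tg thy (above 82.2%). At the start site itself the scores were 71.4 in NKT and 86.5 in Tg thy. The highest Tg thy peak scored 573 (chr1:184101199-184102175, above 96.2%) at 26.1 kb beyond the end of the gene, and the nearest NKT peak was 15817 bp away. Tg thy peaks of 60.8 and 74.0 completed the set, and the upstream peaks lay slightly nearer to 1700056E22Rik.

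The ERK phosphatase genes Dusp5 and Dusp6 differed from each other. Dusp5, whose product acts in the nucleus, had Tg thy peaks of 229, 75.8 and 60.8, all before its start at 26.1, 27.7 and 8.77 kb, and no NKT peak. Dusp6, whose product acts in the cytoplasm, had a Tg thy peak of 314 (above 87.7%) 21.4 kb before its start, over NKT peaks of 80.1 and 78.7. A further NKT peak of 67.9 (above 44.0%) lay over the Dusp6 promoter printed above, where no Tg thy peak was listed. Dusp2, the lymphocyte phosphatase PAC-1, had NKT peaks of 122 at 1.66 kb and 51.8 at 17.0 kb before its start, and Tg thy peaks of 263 at 21.7 kb and 90.5 at 16.7 kb. The peak of 263 was nearer to Stard7, at 15.6 kb. The NKT peak at 17.0 kb and the Tg thy peak at 16.7 kb were 103 bp apart, so none of the Dusp2 peaks overlapped.

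Dusp22, whose product dephosphorylates Lck, had NKT peaks of 111 and 105 at 22.1 and 21.9 kb beyond its end, nearer to Irf4 at 15.9 and 16.1 kb, and a Tg thy peak of 227 inside the gene. It is thus counted in both lists without a common site, as are Dusp2, Ptpre and Ptpn21. Dusp4, which encodes a nuclear MAP kinase phosphatase, had a Tg thy peak of 58.7 at 24.1 kb and none in NKT, and Dusp14, which encodes MKP6, had none in either. Dusp1, an early-response gene, had an NKT peak of 56.8 inside the gene and none in Tg thy, and Dusp16, which encodes a JNK phosphatase, had a Tg thy peak of 65.8 and none in NKT. Dusp12 had NKT and Tg thy peaks of 52.3 and 57.5 at a common site inside Atf6, and a Tg thy peak of 68.1 at its own start. Besides Dusp14, no peak was listed at Dusp3, Dusp7, Dusp8, Dusp9, Dusp11, Dusp13, Dusp15, Dusp18, Dusp19, Dusp21, Dusp23, Dusp26, Dusp27 and Dusp28.

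The intervals for the share of member peaks common to both lists included the share over the whole lists. These intervals treat each peak as independent, so they may be too narrow. Several peaks share a gene, and some NKT peaks lie under the same Tg thy peak. Of 41 NKT peaks at members, 21 overlapped a Tg thy peak (51.2%, exact 95% interval 35.1 to 67.1%), against 60.7% of all nuclear NKT peaks. Of 46 Tg thy peaks at members, 17 overlapped an NKT peak (37.0%, 23.2 to 52.5%), against 45.6% of all nuclear Tg thy peaks. In all 21 overlapping pairs the Tg thy peak was the wider and the higher in score, which held for 91.2% and 81.9% of the 2599 pairs in the whole lists. The rank within its own list was higher for Tg thy in 19 of 21 member pairs, against 57.9% of all pairs, and in 12 of the 14 member pairs in which neither peak overlapped a further one, against 53.4%. The pairs come from 11 genes, several with more than 1 pair. The top 10% of the list held 6 of 41 NKT member peaks and 10 of 46 Tg thy member peaks, where all nuclear peaks gave 9.92% in each list.

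Peaks lay both at and away from the start of the genes. Inside the gene lay 21 of 41 NKT peaks and 23 of 46 Tg thy peaks. Where the strand was known, 10 NKT and 13 Tg thy peaks lay before the start of the gene and 9 and 8 beyond its end. Within 1 kb of the first listed start site lay 8 of 39 NKT and 5 of 44 Tg thy peaks of genes with such a site. Another protein-coding gene was nearer for 12 NKT and 10 Tg thy peaks. Exons and introns were not told apart, since the annotation used here holds gene spans only.

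Kinases of the pathways that these phosphatases act in were counted in the same way. Which gene lay nearest to each peak was not examined for them, so a peak counted here may be nearer to another gene. Of 10 MAP kinase genes, 2 had an NKT peak, near the 20.3% of all genes, and 5 a Tg thy peak, against 23.8%. Per Mb of window these 10 genes held 1.7 NKT and 4.26 Tg thy peaks, against 3.01 and 3.71 for all protein-coding genes. Only Mapk9, which encodes a JNK, had both (67.9 in NKT and 238 in Tg thy). Mapk10, another JNK gene, had an NKT peak of 54.7 alone, and the genes with a Tg thy peak alone included Mapk14, which encodes a p38 kinase, with a score of 174. Of 10 genes of tyrosine kinases and their partners, 6 had an NKT peak and 6 a Tg thy peak, 5 of them both, against the same 20.3% and 23.8%. This group held 8.72 NKT and 11.6 Tg thy peaks per Mb, and its median length was 57.1 kb against 17.2 kb for all genes. The highest scores were at Csk, the kinase that places the phosphate on Lck that CD45 removes, with 404 in NKT and 478 in Tg thy. Zap70, the kinase of the T cell receptor chains, had 160.5 and 140.3, Jak1 143 and 320.1, Lck 127 and 178, and Pag1, the membrane anchor of Csk, 59.1 and 109, the NKT score first. Abl1 had an NKT peak of 51.1 alone and Fyn a Tg thy peak of 57.3 alone, and Jak3, Syk and Src had no peak in either list.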

How the data were processed

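Streptavidin ChIP-seq peaks were analysed for 2 of the 4 samples, 1 NKT and 1 Tg thy library. The 2 input libraries were not analysed here. Bowtie, Picard, HOMER and build mm10 are listed in the submitters' processing notes, and peak names begin with MACS, per the files. Tool versions, and whether inputs served as controls, were not given in the sources used here. The authors deposited 1 peak list per ChIP library, with a score for each peak in column 5 whose scale is not stated and whose depth is unknown. Positions were converted to 1-based. Gene spans came from a RefSeq table of GRCm38.p6, and strands, start sites and promoter sequences from a RefSeq promoter table of that assembly. A gene had a peak when a peak midpoint lay in its body or within 30 kb, peaks were shared when they overlapped by at least 1 bp, and intervals are exact binomial 95% intervals from SciPy 1.17.1. Peak assignment was tested on simulated data with known answers. Values were given for leukocyte members, the 8 highest-scoring members of each list and the 3 highest found in 1 list only, and others by name and range. Members and lists were chosen with earlier results of these data known, and motifs after the files were seen. Alternatives were other windows, stricter score limits, nearest-gene assignment and other definitions of sharing.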

Additional observations from a re-analysis of the deposited data

How the results depend on the processing

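Of 95 values under other settings, 59 stayed within 1.5 times the reported count or within the reported interval. Within gene bodies alone, 12 members had an NKT peak, 13 a Tg thy peak and 7 both, with Ptpn counts of 4 and 4, Dusp counts of 2 and 4, a Ptpr Tg thy count of 5 and leukocyte counts of 7 and 8, NKT first. Windows of 10 kb gave Tg thy counts of 5 Ptpr and 5 Dusp genes, and windows of 100 kb gave 23 members with both, 11 Ptpn genes in Tg thy and 10 Dusp genes in NKT. The top 50% of each list gave 13 members and 3 Ptpn genes in NKT, 5 Dusp genes in Tg thy, and shared percentages of 72.7% (NKT) and 60.9% (Tg thy). The top 1000 peaks gave 6 and 10 members, 5 with both, 1 and 3 Ptpn, 4 and 4 Ptpr, 1 and 3 Dusp and 5 and 8 leukocyte genes, and 87.5% of NKT member peaks shared. Counting only peaks nearest to the member gave 4 Ptpn genes in NKT and 5 Ptpr genes in Tg thy. Reciprocal overlap of 50% gave 22.0% (NKT) and 19.6% (Tg thy) shared. Narrower windows and stricter limits keep fewer peaks by construction. The share of leukocyte members was above that of all genes in each of these settings, from 23.8% against 5.84% (NKT, top 1000) to 76.2% against 41.6% (Tg thy, 100 kb). All settings draw on the same peak lists, and the leukocyte list was chosen with results of these data known. The settings are therefore no independent check of that contrast. With 1 library per group no replicate could be left out. No paired analysis was possible because the results come from no test and each group has a single library.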

Other observations

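Several peaks counted as unshared lay close to a peak of the other list. Of the 20 NKT member peaks without an overlap, 3 had a Tg thy peak within 1000 bp, at Ptprc (19 bp away), Dusp2 (103 bp) and Ptprk (195 bp). Of the 29 Tg thy member peaks without an overlap, 2 had an NKT peak that close, at Dusp2 (103 bp) and Ptpn6 (258 bp).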
